A study of Mus musculus with 6 samples.

Results

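The genes described here are the regulators that drive or hold back the cell division cycle: cyclins, cyclin-dependent kinases (CDKs), CDK inhibitors, the Cdc25 phosphatases and the kinase Wee1, the Rb family and the E2f transcription factors. They were taken as a named list of 38 genes, and a gene was read on the array probe that carried only its symbol and, where there were several such probes, on the one with the highest mean over all arrays. That gave values for 35 of the 38 genes, among 22180 genes in all. The probes of Ccne2 and Pkmyt1 carried several gene symbols, and no probe was listed for Ccnb1, so these 3 members were not analysed here.

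Expression was measured on 6 arrays of bone marrow LSK cells, the marrow fraction without lineage markers that carries Sca-1 and Kit and holds blood stem cells and early progenitors. All mice were C57Bl6, carried the tamoxifen-inducible Tg(Cdh5-Cre/ERT2) transgene together with the Rosa 26 YFP reporter, received tamoxifen on days 1, 2 and 3 after birth and were sampled at postnatal day 27. Sorting on the reporter gave 3 arrays of YFP-positive and 3 of YFP-negative LSK cells, which compares cells with a history of Cre activity from the promoter of Cdh5 (VE-cadherin, an endothelial adhesion protein) with unmarked cells in the same gate. The mark passes to all descendants of a cell in which Cre was active, and it is also carried by endothelial cells. The labels do not say whether replicates were separate animals, so the p-values reflect the scatter among these 6 arrays, part of which may be technical.

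As background, D cyclins with Cdk4 or Cdk6 begin the phosphorylation of Rb family proteins in response to growth signals, and cyclin E with Cdk2 completes it. This frees E2f factors to switch on the genes of DNA synthesis. Cyclin A with Cdk2 and then cyclin B with Cdk1 carry the cell through S phase and into mitosis, where Cdc25 phosphatases activate the CDKs and Wee1 and Pkmyt1 restrain them. Ink4 inhibitors (Cdkn2a to Cdkn2d) block Cdk4 and Cdk6, and Cip/Kip inhibitors (Cdkn1a, Cdkn1b, Cdkn1c) act more broadly. Most long-term blood stem cells of the adult rest outside the cycle, while multipotent progenitors divide more often.

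The driver gene itself differed between the groups at sampling. Cdh5 measured 11.63, 11.84 and 11.29 in YFP-positive replicates 1, 2 and 3 and 5.40, 4.55 and 3.71 in the YFP-negative ones, with no overlap. The label records earlier Cre activity, and descendants keep it whether or not they still express Cdh5. These levels therefore describe the sorted cells at day 27 and do not check the label. Kit, which defines the gate, lay above the array median in all 6 arrays but fell 1.86-fold in YFP-positive cells (6.98, 6.56 and 7.06 against 7.57, 7.96 and 7.74, adjusted p = 0.0496). That call was lost in each of the 6 fits that omitted an array (adjusted p 0.0598 to 0.148). Ly6a, the gene of Sca-1, was not analysed here. Of 15 endothelial marker genes, 14 rose in YFP-positive cells, and their mean log2 level was 9.87, 9.97 and 9.27 against 5.44, 5.39 and 4.75. Of 14 leukocyte markers, 4 fell (11 without YFP-positive replicate 3, and 1 or 2 without any other array), with mean levels of 5.90, 6.13 and 7.87 against 8.38, 8.36 and 8.31. YFP-positive replicate 3 was split over these 14 genes: 6 lay below all YFP-negative arrays, 6 above them and 2 within their range. Ptprc (CD45) was among those above, at 6.52, 6.96 and 9.52 against 9.33, 9.24 and 9.37, while Vav1, a signalling protein of blood cells, was among those below, at 5.08, 5.28 and 5.22 against 8.16, 7.44 and 7.66, and so was Cd48, at 4.01, 4.92 and 6.37 against 8.67, 9.08 and 8.82. The level of neutrophil markers was also highest in replicate 3 of each population, at 8.33, 8.97 and 10.05 against 7.38, 7.93 and 9.95. Of the 12 neutrophil markers 0 passed limma's test (before adjustment 2 had a p under 0.05, both lower, and the unmoderated model called 0). Of the other marker lists, 2 of 8 macrophage genes rose and 1 of 6 B cell genes fell. The macrophage genes that rose were Vcam1 and Mertk. Differences of C1qa, C1qb, C1qc, Adgre1, Csf1r and Cd68 lay between -0.22 and 0.20. Of 6 erythroid, 5 megakaryocyte, 6 T and NK cell and 8 stromal genes, 0 passed limma's test (before adjustment 3, 0, 2 and 4 had a p under 0.05, and the unmoderated model called 0). Among all genes 2.88% rose and 1.96% fell with limma, and before adjustment 7.79% were higher and 9.44% lower. The part of endothelial cells, or of replicate 3, in the results that follow was not tested beyond the fits that left out an array. In such bulk samples, fewer cells of a type and less RNA per cell cannot be told apart.

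The cell cycle regulators were more often lower than higher in YFP-positive cells by their measured values, but nearly all of them missed the threshold. With limma, 1 of the 35 (2.86%), Cdc25c, fell at an adjusted p under 0.05 (adjusted over all 22180 genes), where 1.96% of all genes fell. None rose (0 of 35, against 2.88% of all genes; before adjustment 2 had a p under 0.05, and the unmoderated model called 0). At an unadjusted p under 0.05, 11 of 35 (31.4%) were lower, against 9.44% of all genes, and 2 of 35 (5.71%) were higher, against 7.79%. In 8 of the 35 all YFP-positive arrays lay below all YFP-negative arrays, a pattern seen in 11.9% of all genes, and in 3 the YFP-positive arrays all lay above, as in 10.8% of all genes. The difference was below 0 for 24 members (68.6%), against 51.3% of all genes, and above 0 for 11. The median was -0.50, against -0.01 over all genes. For 13 of 35 (37.1%) the 95% interval of the difference lay within -1 and 1, against 72.7% of all genes.

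**Figure D1:**
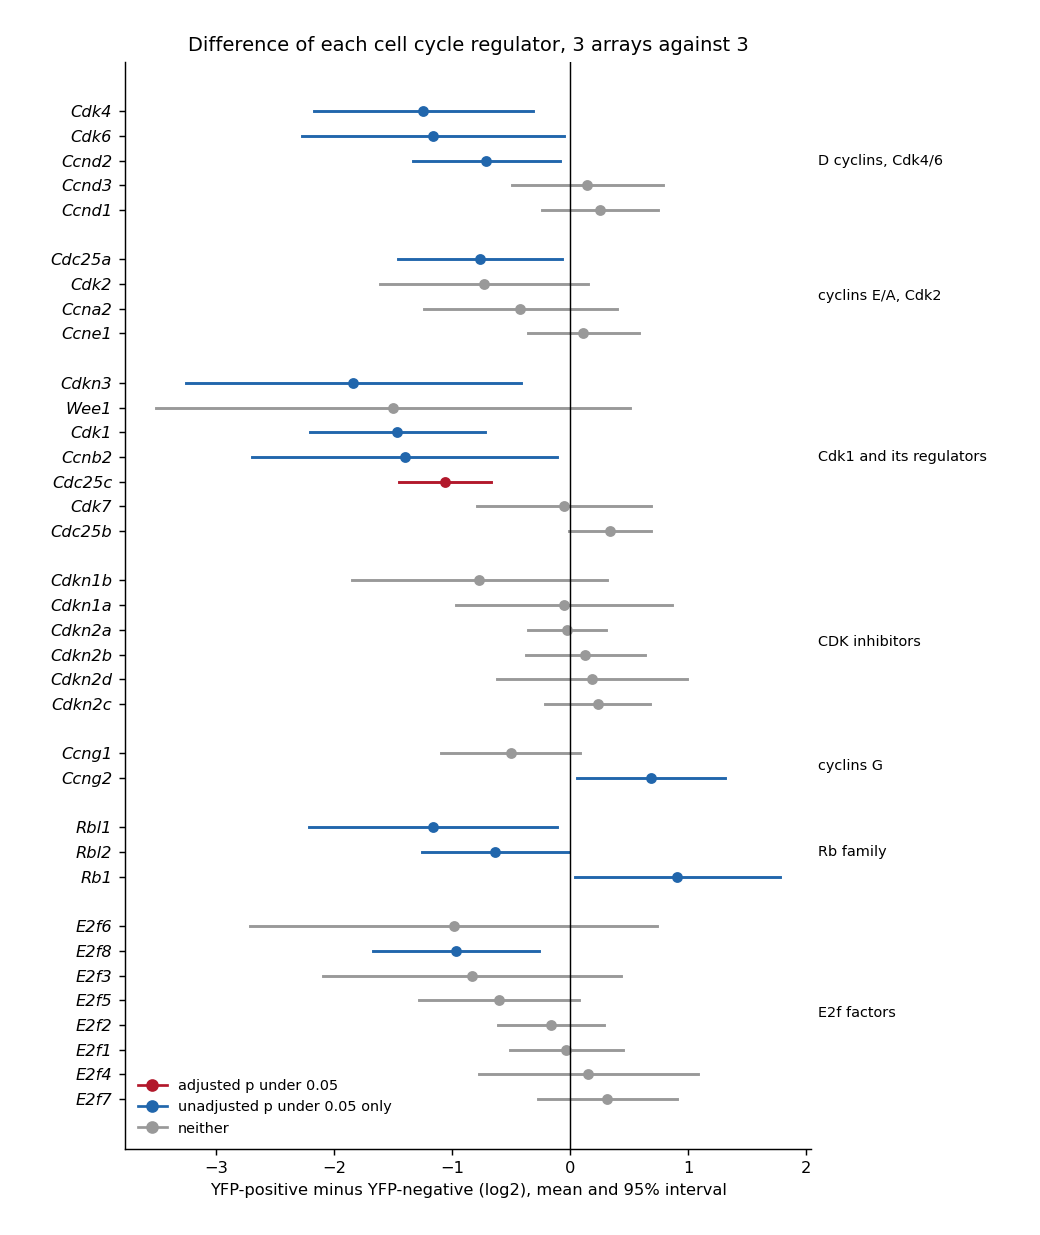
Difference between YFP-positive and YFP-negative LSK cells for each of the 35 measured regulators, on the log2 scale, with the mean (point) and the 95% interval from limma (line), ordered by role and size. Cdc25c (red) is the only member past an adjusted p of 0.05; the 11 lower and 2 higher members past an unadjusted p of 0.05 include it and the blue points, and the interval of each CDK inhibitor includes 0, with Cdkn1b the lowest of them at -0.77.

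Promoters of lower members are shown first, because many cell cycle genes that act from S phase to mitosis are regulated together. Such genes are known to share promoter elements: the cell cycle genes homology region (CHR, searched as TTTGAA), bound by the DREAM and MuvB complexes, CCAAT boxes (CCAAT), bound by NF-Y, and E2f elements (searched as TTCCCGC, also as TTCGCGC, also as TTGCCGC and also as TTGGCGC). All were searched on both strands in windows from 250 bases before to 50 bases after the annotated start. Among 32851 such windows in RefSeq's annotation of GRCm38.p6, 17.9% hold the CHR letters, 9.57% an E2f word and 37.4% CCAAT. The 5 members below were lower at an unadjusted p under 0.05 and held at least 2 of the 3 elements. They were thus picked by their difference as well as by their letters. Windows of Cdk2, E2f2, E2f3 and E2f7, which were not lower at that threshold, also held at least 2, and a window of E2f3 held all 3. Of the lower members with a window that are not shown, Rbl1 and Rbl2 held 1 each, and Cdk4 and Cdk6 held 0. Capitals mark the matches, and the build and positions are those of RefSeq, since the array values come with no build.
Ccnb2, GRCm38.p6 chr9:70421505-70421804, minus strand: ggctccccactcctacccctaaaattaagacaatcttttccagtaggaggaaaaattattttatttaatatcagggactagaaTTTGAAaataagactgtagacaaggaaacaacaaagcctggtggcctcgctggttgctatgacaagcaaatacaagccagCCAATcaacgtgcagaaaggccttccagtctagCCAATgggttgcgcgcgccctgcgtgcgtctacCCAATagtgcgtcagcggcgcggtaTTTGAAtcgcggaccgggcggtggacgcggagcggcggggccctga
Cdk1, GRCm38.p6 chr10:69352863-69353162, minus strand: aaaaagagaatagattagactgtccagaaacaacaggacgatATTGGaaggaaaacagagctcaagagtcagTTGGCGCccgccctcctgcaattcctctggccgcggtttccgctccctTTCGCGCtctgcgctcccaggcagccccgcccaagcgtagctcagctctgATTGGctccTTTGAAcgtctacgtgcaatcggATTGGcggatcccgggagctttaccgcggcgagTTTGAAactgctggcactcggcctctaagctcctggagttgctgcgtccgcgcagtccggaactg
Cdkn3, GRCm38.p6 chr14:46760291-46760590, plus strand: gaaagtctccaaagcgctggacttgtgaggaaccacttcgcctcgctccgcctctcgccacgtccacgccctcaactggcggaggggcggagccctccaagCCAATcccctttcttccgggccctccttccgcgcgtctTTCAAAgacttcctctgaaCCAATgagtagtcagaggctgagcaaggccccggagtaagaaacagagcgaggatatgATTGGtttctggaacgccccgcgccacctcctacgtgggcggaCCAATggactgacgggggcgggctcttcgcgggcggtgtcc
E2f8, GRCm38.p6 chr7:48881547-48881846, minus strand: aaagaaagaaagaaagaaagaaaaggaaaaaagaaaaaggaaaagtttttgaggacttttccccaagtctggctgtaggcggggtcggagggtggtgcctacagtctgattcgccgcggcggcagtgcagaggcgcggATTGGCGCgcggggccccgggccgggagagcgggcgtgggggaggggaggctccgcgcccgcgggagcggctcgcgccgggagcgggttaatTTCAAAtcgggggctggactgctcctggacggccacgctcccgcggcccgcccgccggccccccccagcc
Cdc25a, GRCm38.p6 chr9:109875329-109875628, plus strand: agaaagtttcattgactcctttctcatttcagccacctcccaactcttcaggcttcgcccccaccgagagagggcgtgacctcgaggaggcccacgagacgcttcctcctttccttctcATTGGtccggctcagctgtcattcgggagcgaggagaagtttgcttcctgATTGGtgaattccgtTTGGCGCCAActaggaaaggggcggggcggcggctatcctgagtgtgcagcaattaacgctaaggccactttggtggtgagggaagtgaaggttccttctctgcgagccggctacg

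In Ccnb2, CCAAT occurs 87, 54 and 21 bases before the start, and CHR words begin 167 bases before it and at base 5 of the transcript. Cdk1 holds all 3 elements, with CHR words 71 and 15 bases, E2f words 178 and 130 bases and CCAAT boxes (on the other strand) 208, 80 and 48 bases upstream. The E2f8 window holds a CHR word on the other strand 20 bases upstream, and an E2f word that overlaps a CCAAT box on the other strand, 111 and 112 bases upstream. Cdkn3 has a CHR word 111 bases upstream and 4 CCAAT boxes, but no E2f word, while Cdc25a has CCAAT boxes and a pair of overlapping E2f words 66 and 63 bases upstream but no CHR word. Of the 35 measured members, 27 had a window in the table, some of them for several starts. Counting a gene if any of its windows matched, CHR letters stood in 5 of the 9 members with a window that were lower at an unadjusted p under 0.05, and in 3 of the 18 others. The E2f words stood in 4 of 9 and 6 of 18, and CCAAT in 5 of 9 and 11 of 18. These are counts of letters and were not tested. Cdc25c and Ccnd2, which were also among the 11 lower members, had no window in the table.

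Among Cdk1 and its regulators, all of the measured members but Cdc25b had a difference below 0. The median of the 7 was -1.40. Cdc25c, the phosphatase that activates Cdk1 at the entry into mitosis, measured 4.03, 4.17 and 4.37 in YFP-positive replicates 1, 2 and 3 and 5.07, 5.18 and 5.51 in the YFP-negative arrays. All YFP-positive arrays lay below all YFP-negative arrays, and the gap between the nearest arrays exceeded the spread within either group. The YFP-positive values were, however, close to the array medians of 3.62 to 3.68, and whether low signal limited the measured difference was not tested. Cdc25c fell 2.09-fold (-1.06 ± 0.16 (SE), n = 3 each, adjusted p = 0.0207 with limma). This call was kept without YFP-positive replicate 3 (adjusted p = 0.0275) and lost without any other single array (highest adjusted p = 0.0741), while the difference stayed between -1.16 and -0.94.

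Cdk1 itself, the kinase that drives mitosis with cyclin B, measured 5.45, 4.82 and 5.32 in YFP-positive and 6.06, 7.06 and 6.86 in YFP-negative arrays. Its groups did not overlap either, and here replicate 3 lay with the other YFP-positive arrays. The difference of -1.46 ± 0.30 (2.76-fold lower) narrowly missed the threshold (adjusted p = 0.0549 with limma). It passed without YFP-negative replicate 1 (adjusted p = 0.0356, range 0.0356 to 0.154 when each array in turn was omitted), with quantile normalization (adjusted p = 0.0487) and when only genes above the median level were tested (adjusted p = 0.0344). It did not pass without moderation (adjusted p = 0.209), when all probes were tested (adjusted p = 0.106), with a robust mean-variance trend (adjusted p = 0.0564) or after centring on the array median (adjusted p = 0.053).

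Of the other members of the mitotic group, Ccnb2, Wee1 and Cdkn3 split along the YFP-positive replicates. Ccnb2, a B-type cyclin and partner of Cdk1, measured 7.99, 7.38 and 9.48 in YFP-positive and 10.00, 9.65 and 9.41 in YFP-negative arrays. Replicate 3 lay within the YFP-negative range, and replicates 1 and 2 lay more than 1 log2 unit below it. Over all arrays the difference was -1.40 ± 0.53 (adjusted p = 0.25, 2.65-fold), and without YFP-positive replicate 3 Ccnb2 was 4.01-fold lower (adjusted p = 0.0192). Wee1, the kinase that holds Cdk1 inactive, had the widest split, with 3.50, 3.20 and 6.32 in YFP-positive against 5.86, 6.18 and 5.48 in YFP-negative arrays. Its replicate 3 was the highest of all 6 arrays, and replicates 1 and 2 lay below the array medians of 3.62 to 3.68, which is low for these arrays. The difference was -1.50 ± 0.83 (adjusted p = 0.45) with all arrays and -2.49 without that replicate (adjusted p = 0.00802). Cdkn3, a phosphatase that acts on CDKs, measured 3.96, 4.54 and 6.10 against 6.49, 6.30 and 7.33. All its YFP-positive values were below all YFP-negative values, but replicate 3 was only just below. The difference of -1.84 ± 0.58 (adjusted p = 0.172) was the largest of any member, and it became -2.45 (adjusted p = 0.0277) without replicate 3. Cdc25b, a Cdc25 phosphatase that acts before mitosis, measured 4.10, 3.68 and 3.94 against 3.54, 3.48 and 3.67 and was the member of this group with higher values in every YFP-positive array, though close to the array medians (0.34 ± 0.14, adjusted p = 0.302). Cdk7, which activates other CDKs and also serves in transcription, overlapped fully (4.88, 4.03 and 4.76 against 4.41, 5.08 and 4.32, adjusted p = 0.962).

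**Figure D2:**
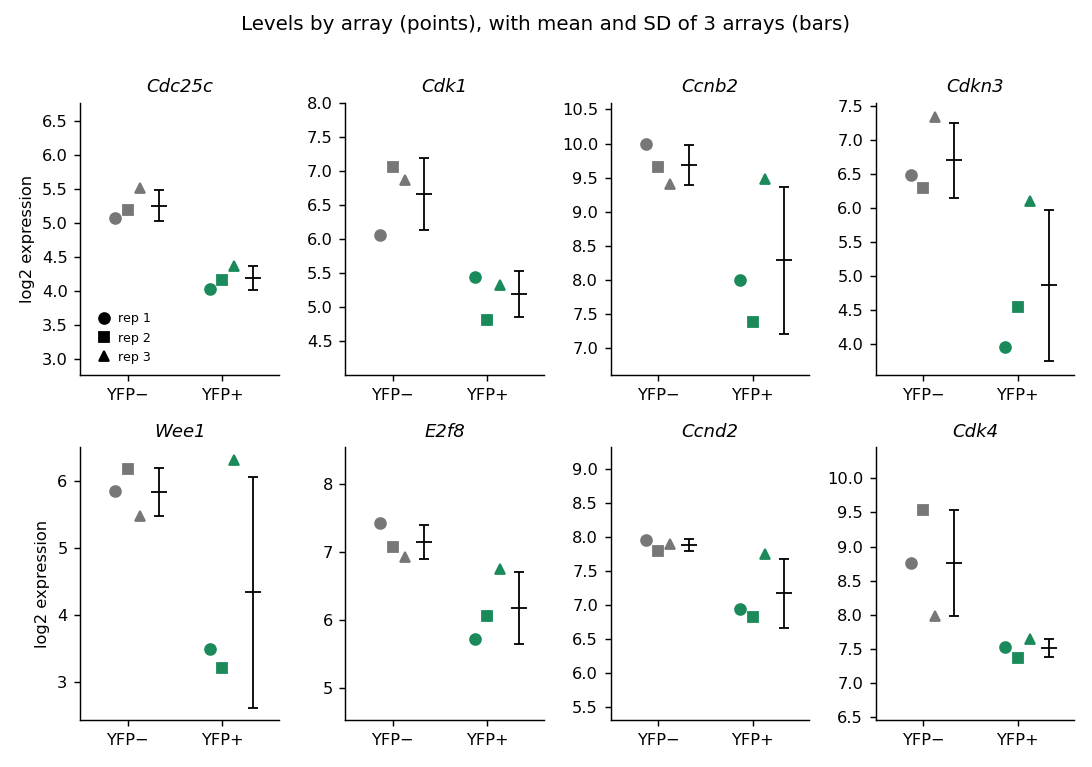
Log2 expression of 8 members in each array, with replicate 1 as circles, 2 as squares and 3 as triangles, YFP-negative in grey and YFP-positive in green; bars give the mean and SD of 3 arrays, and each panel has its own range. Cdc25c, Cdk1 and Cdk4 are low in all YFP-positive arrays, while replicate 3 of Ccnb2 and Wee1 lies at the YFP-negative level.

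The D cyclins and their kinases differed among themselves. Ccnd2, a D cyclin of blood progenitors, measured 6.94, 6.82 and 7.75 in YFP-positive and 7.95, 7.79 and 7.89 in YFP-negative arrays. Its 3 YFP-negative arrays lay within a narrow band, with replicates 1 and 2 of the YFP-positive cells well below it and replicate 3 at its edge. The difference was -0.71 ± 0.26 (adjusted p = 0.225), and it was larger and passed without YFP-positive replicate 3 (adjusted p = 0.0159). Ccnd1 (6.12, 6.71 and 6.39 against 5.89, 6.39 and 6.17) and Ccnd3 (6.39, 6.71 and 6.81 against 6.03, 6.46 and 6.99) overlapped between the groups, with differences of 0.25 ± 0.20 and 0.14 ± 0.26 (adjusted p = 0.632 and 0.86). The 95% intervals, -0.24 to 0.74 for Ccnd1 and -0.50 to 0.78 for Ccnd3, leave room for changes of less than 1 log2 unit either way. Cdk4, a kinase partner of the D cyclins, measured 7.53, 7.37 and 7.64 in YFP-positive and 8.76, 9.54 and 7.98 in YFP-negative arrays. The YFP-positive arrays were close together and all below the YFP-negative ones, which spread over more than 1 log2 unit. Its difference of -1.25 ± 0.38 (2.37-fold lower) did not pass (adjusted p = 0.157, 0.0506 to 0.329 over the fits without 1 array). Cdk6, the other partner, measured 7.26, 8.71 and 7.52 against 9.14, 9.47 and 8.37, where YFP-positive replicate 2 lay among the YFP-negative arrays (-1.16 ± 0.46, adjusted p = 0.269).

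For the step into S phase, Cdk2 measured 6.10, 5.13 and 6.05 in YFP-positive and 6.16, 7.08 and 6.23 in YFP-negative arrays, with replicate 2 far below the rest and no overlap (-0.73 ± 0.36, adjusted p = 0.388). Cdc25a, the phosphatase that activates Cdk2, measured 5.27, 5.38 and 5.64 against 6.57, 5.56 and 6.44. YFP-negative replicate 2 lay at the YFP-positive level, and the difference was -0.76 ± 0.29 (adjusted p = 0.245). Ccna2, the cyclin of S phase and G2, measured 7.63, 7.36 and 8.52 against 8.37, 8.51 and 7.89 with replicate 3 the highest of all arrays (-0.42 ± 0.34, adjusted p = 0.627). Ccne1, an E-type cyclin, lay above the array median in all arrays, between 3.94 and 4.50, with a 95% interval of the difference of -0.36 to 0.58.

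No inhibitor of this list moved past the threshold. Of the 6 measured, 0 passed limma's test (before adjustment 0 had a p under 0.05, and the unmoderated model called 0), and for 5 the 95% interval of the difference lay within -1 and 1. Cdkn1a, a Cip/Kip inhibitor induced by p53, measured 8.47, 7.99 and 7.88 in YFP-positive and 8.64, 7.34 and 8.52 in YFP-negative arrays, and the groups overlapped fully (-0.05 ± 0.38, interval -0.97 to 0.86, adjusted p = 0.97). Its difference was 0.04 with quantile normalization, so no direction can be read from it. Cdkn1b, another Cip/Kip inhibitor, was the member with the wide interval. It measured 6.46, 6.49 and 7.17 against 7.73, 8.17 and 6.54, where YFP-negative replicate 3 lay more than 1 log2 unit below the other YFP-negative arrays (-0.77 ± 0.44, interval -1.85 to 0.31, adjusted p = 0.473).

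The Ink4 inhibitors overlapped between the groups as well. Cdkn2a, whose locus encodes both p16 and Arf and whose single probe cannot separate them, measured 3.40, 3.62 and 3.67 against 3.78, 3.52 and 3.47 and was below the array median in 4 of 6 arrays. Cdkn2b measured 5.27, 4.49 and 4.86 against 4.85, 4.70 and 4.68 and Cdkn2c 4.25, 4.27 and 4.60 against 4.33, 4.26 and 3.82, with intervals of -0.38 to 0.63 and -0.21 to 0.68. Cdkn2d measured 4.92, 5.05 and 6.16 against 5.20, 5.25 and 5.12, with replicate 3 of the YFP-positive cells alone above the other 5 arrays (0.19 ± 0.33, adjusted p = 0.856). Without that replicate its difference was -0.20. Cdkn1c (p57), an imprinted Cip/Kip inhibitor of adult stem cells and of several differentiated tissues that is not on this list, measured 6.74, 6.24 and 6.19 against 5.37, 4.98 and 5.43, with no overlap. Cdkn1c rose 2.18-fold (1.13 ± 0.20, adjusted p = 0.0374), a call kept only without YFP-positive replicate 3 among the 6 fits that left out 1 array (0.0493 to 0.109).

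**Figure D3:**
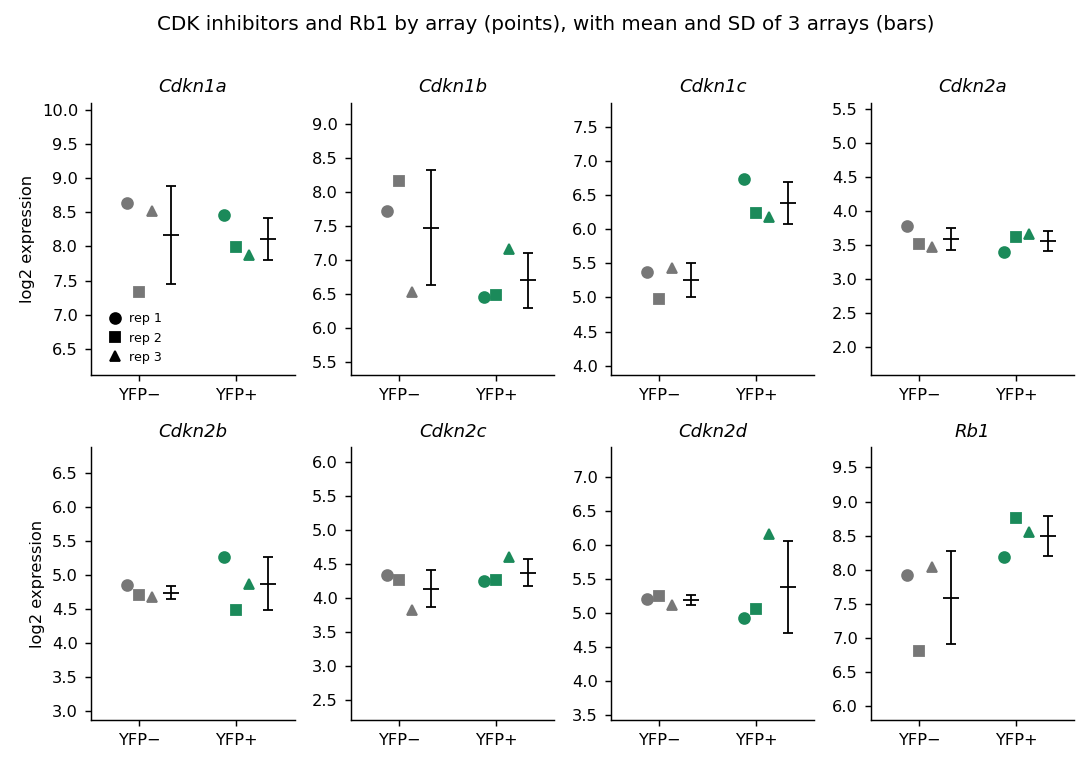
Log2 expression of the 6 measured CDK inhibitors of the list, of Cdkn1c and of Rb1 in each array, with replicates 1, 2 and 3 as circles, squares and triangles; bars give the mean and SD of 3 arrays, and each panel has its own range. Cdkn1c and Rb1 are higher in every YFP-positive array, and the groups overlap in all other panels.

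The Rb family and the G cyclins each held members with differences of either sign. Rb1, the retinoblastoma protein that restrains E2f factors, measured 8.18, 8.76 and 8.55 in YFP-positive and 7.92, 6.80 and 8.03 in YFP-negative arrays on its brighter probe. Every YFP-positive array was above every YFP-negative array, by 0.91 ± 0.36 (adjusted p = 0.268). Its other probe differed in sign, at 7.93, 8.10 and 4.76 against 8.13, 7.67 and 6.35, and the difference was 0.23 as the mean of both probes (adjusted p = 0.886). Rbl1 (p107), itself a gene that E2f factors switch on, measured 4.27, 4.14 and 4.72 against 6.31, 5.67 and 4.63, with YFP-negative replicate 3 at the YFP-positive level (-1.16 ± 0.43, adjusted p = 0.241). Rbl2 (p130), the family member that accumulates in resting cells, measured 6.01, 6.11 and 5.68 against 7.07, 6.45 and 6.17. It was lower in every YFP-positive array (-0.63 ± 0.26), yet the nearest arrays were closer than the spread within the YFP-negative group, and it did not pass (adjusted p = 0.285).

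Ccng2, a cyclin-like gene that rises when cells leave the cycle and a target of Foxo factors, measured 6.41, 6.94 and 6.45 in YFP-positive and 5.55, 6.39 and 5.81 in YFP-negative arrays. All YFP-positive arrays were higher, although replicates 1 and 3 only just (0.68 ± 0.26, adjusted p = 0.249). Ccng1, a target of p53, measured 8.27, 8.47 and 8.55 against 8.42, 9.28 and 9.10 with overlap (-0.50 ± 0.24, adjusted p = 0.37).

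Among the 8 E2f genes, 0 passed limma's test (before adjustment 1 had a p under 0.05, lower, and the unmoderated model called 0). That is 12.5% of them, where 9.44% of all genes were lower before adjustment. A difference below 0 was seen for 6 of the 8 (75%), against 51.3% of all genes. E2f8, an atypical repressor made in S phase and G2, measured 5.72, 6.05 and 6.75 in YFP-positive and 7.42, 7.08 and 6.93 in YFP-negative arrays, without overlap. Its difference was -0.97 ± 0.29 (adjusted p = 0.147), and -1.26 without YFP-positive replicate 3 (adjusted p = 0.034). E2f7, the other atypical member, measured 6.21, 5.29 and 5.82 against 5.55, 5.30 and 5.53 (0.31 ± 0.24, adjusted p = 0.616), so the atypical pair had measured differences of opposite sign, which was not tested. Of the activators, E2f1 measured 5.06, 4.58 and 4.66 against 5.01, 4.49 and 4.89 with an interval of -0.51 to 0.45, and E2f2 measured 3.17, 2.97 and 3.51 against 3.63, 3.27 and 3.24, below the array median in all 6 arrays. E2f3 varied most in YFP-negative arrays, at 4.94, 6.29 and 6.87, against a mean of 5.20 ± 0.47 (SD, n = 3) in YFP-positive arrays (-0.83 ± 0.52, adjusted p = 0.516). Of the factors that mainly repress, E2f4 measured 6.72, 5.84 and 6.41 against 6.91, 5.64 and 5.98, E2f5 5.35, 4.66 and 5.49 against 6.06, 5.40 and 5.86 and E2f6 4.39, 2.68 and 4.87 against 6.10, 4.37 and 4.43. None of these passed (adjusted p = 0.904, 0.347 and 0.589).

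**Figure D4:**
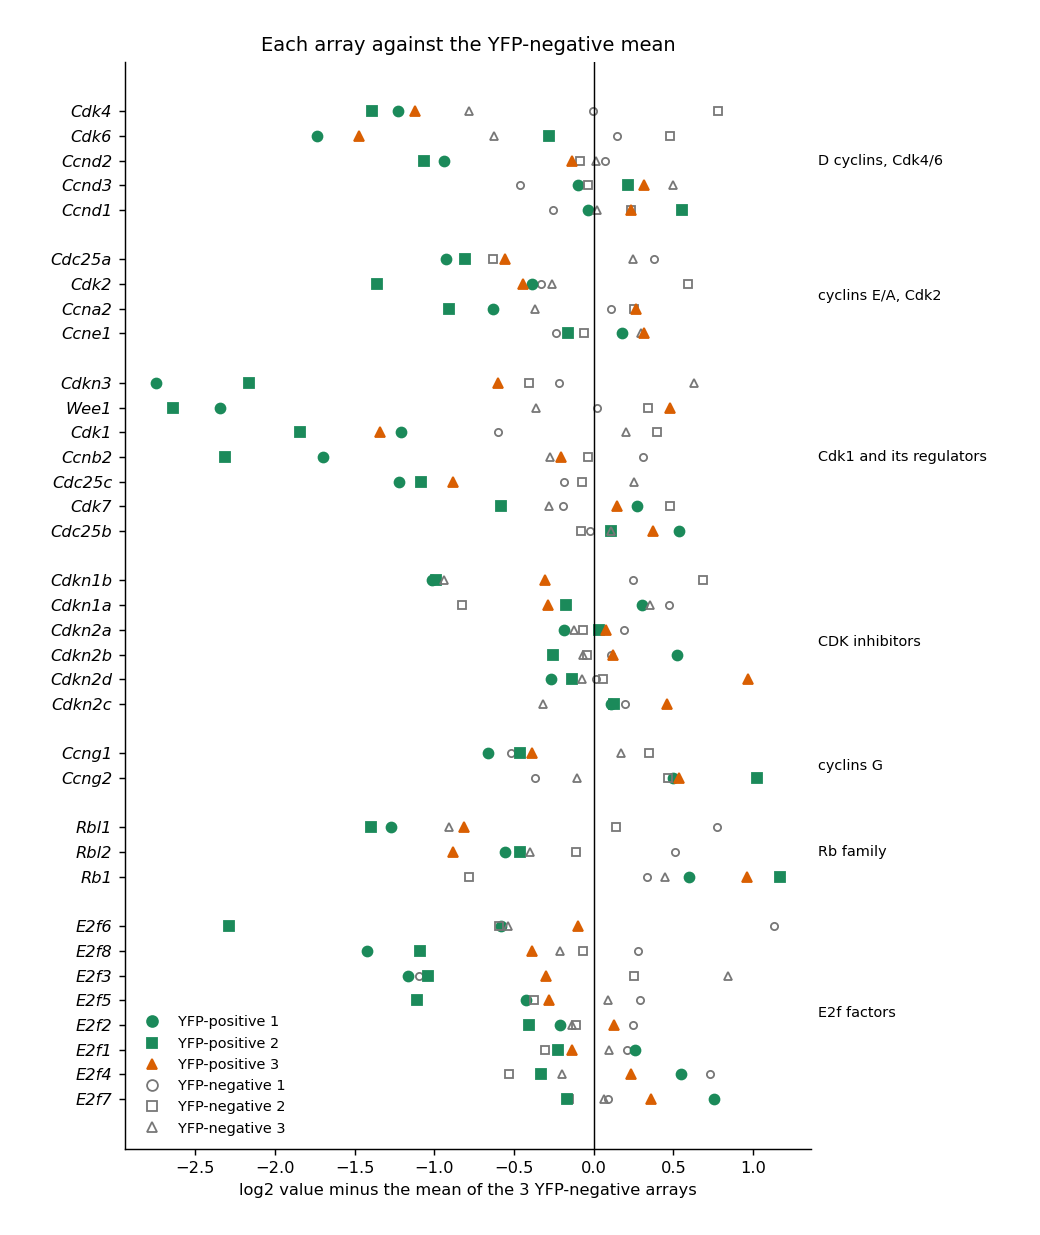
Log2 value of each member in each array minus the mean of the 3 YFP-negative arrays, so that 0 is the YFP-negative mean; open grey symbols are YFP-negative arrays, green symbols YFP-positive replicates 1 and 2, and orange triangles YFP-positive replicate 3. Replicate 3 is the YFP-positive array closest to the YFP-negative mean for 20 of the 35 members, with a wide gap to the others for Wee1, Ccnb2 and Cdkn3 and none for Cdk1.

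Several of these outcomes rested on YFP-positive replicate 3. Its median deviation from the YFP-negative mean over the 35 members was -0.13, against -0.42 and -0.46 in replicates 1 and 2. For Cdk1 and its regulators these values were -1.22, -1.84 and -0.20 in replicates 1, 2 and 3. Replicate 3 was the closest YFP-positive array to the YFP-negative mean for 20 of 35 members (57.1%), against 37% of all genes, and for 8 of the 11 lower members (72.7%), against 43.5% of all genes lower at the same threshold. Without this array 6 of 35 members (17.1%) fell past an adjusted p of 0.05, namely Ccnb2, Ccnd2, Cdc25c, Cdkn3, E2f8 and Wee1, against 2.33% of all genes. Without any other single array the number was 0 or 1, and the member that fell without YFP-negative replicate 1 was Cdk1. In the same array the leukocyte markers, split as described above, deviated by 0.14 in the median, against -2.27 and -2.40 in replicates 1 and 2. Its endothelial markers deviated by 4.40, against 5.37 and 5.58. Markers of LSK cells and progenitors had low medians in all 3 YFP-positive arrays, at -2.06, -2.21 and -1.87. Of these 10 genes 7 (70%) fell, against 1.96% of all genes (4 to 6 in the fits without 1 array, 4 without YFP-negative replicate 2). The list was not uniform: Mecom, Procr and Gata2 differed by -1.05, -0.03 and -0.27 and did not pass (adjusted p = 0.139, 0.97 and 0.834 with limma). The part of these markers in the levels of the cell cycle regulators was not tested.

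**Figure D5:**
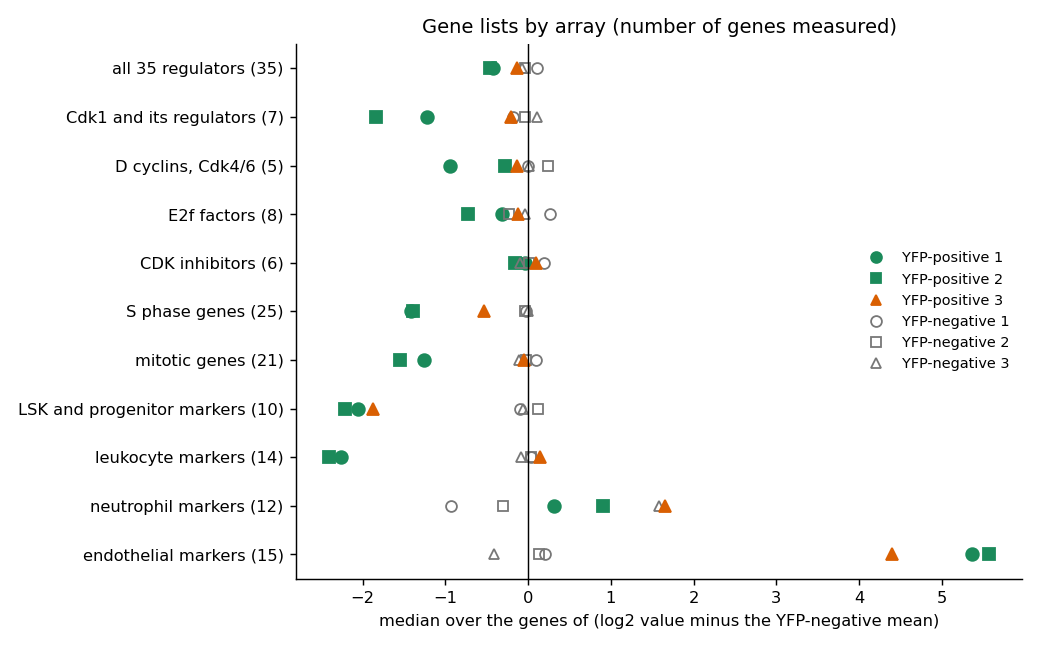
Median over each gene list of the log2 value minus the YFP-negative mean, for each array, with the number of genes measured in brackets; open grey symbols are YFP-negative, green and orange symbols YFP-positive. YFP-positive replicate 3 lies near 0 for the mitotic group and for leukocyte markers, at -1.87 for LSK and progenitor markers and at 4.40 for endothelial markers.

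Genes downstream of and around these regulators were read from 6 further lists of 118 measured genes. All 25 S phase genes that E2f factors are known to drive had a difference below 0 (median -1.28), as did 51.3% of all genes (median -0.01). Their differences were not uniform and ranged from -2.60 to -0.0018, the value of Slbp. Those of Tk1, Orc1, Cdc6 and Mcm10 lay between -0.28 and -0.13. Of the 25 genes, 7 (28.0%) fell, against 1.96% of all genes. Cdc45, a part of the replicative helicase, measured 4.35, 3.95 and 4.64 in YFP-positive and 6.22, 5.69 and 6.22 in YFP-negative arrays and fell 3.32-fold (adjusted p = 0.0151). Pola1, a DNA polymerase subunit, fell 2.74-fold, Gins2, another part of that helicase, 3.35-fold, and Chaf1a, a histone chaperone, 2.94-fold (adjusted p = 0.0156, 0.0189 and 0.024). Here replicate 3 lay between the others and the YFP-negative arrays, with medians of -1.41, -1.39 and -0.54. The number that fell was 12 without YFP-positive replicate 3. It was 4 without YFP-positive replicate 2 or YFP-negative replicate 3, and 1 without any of the other 3 arrays. Of 21 mitotic genes, all had a difference below 0 (median -0.95) and 2 (9.52%) fell, against the same shares of all genes. These were Prc1, which organises the central spindle, 3.14-fold lower, and Cenpf, a kinetochore protein, 2.07-fold lower (adjusted p = 0.0357 and 0.046). By array, the mitotic genes had median deviations of -1.26, -1.55 and -0.05 in YFP-positive cells, and 10 fell without replicate 3 and 0 without any other array.

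Among 28 other cyclins, CDKs and related genes (median 0.08), 2 fell and 1 rose, where 1.96% of all genes fell and 2.88% rose. Cdk19, a kinase of the Mediator complex, measured 4.71, 6.03 and 6.01 against 8.43, 8.15 and 8.31 and fell 6.57-fold, and Ccnc, the cyclin partner of that kinase, measured 4.45, 3.92 and 4.07 against 5.40, 5.22 and 4.99 and fell 2.08-fold (adjusted p = 0.0156 and 0.032). Both were low in all YFP-positive arrays, replicate 3 included. Ccnc kept its call only without YFP-positive replicate 1 among the 6 fits that left out an array (0.0372 to 0.111), and Cdk19 lost its call without each YFP-negative array (0.00459 to 0.0666). The gene that rose was Cdkn1c, described above.

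Of 15 checkpoint, p53 and Foxo genes (median -0.09), 2 rose and 2 fell, beside the same shares of all genes. Foxo1, a transcription factor active in resting cells, measured 8.05, 7.81 and 7.92 against 6.71, 6.37 and 6.95 and rose 2.38-fold, and Txnip, an inhibitor of thioredoxin, measured 11.66, 11.43 and 11.17 against 10.14, 9.73 and 9.56 and rose 3.06-fold (adjusted p = 0.0161 and 0.0122). Chek1, the checkpoint kinase that holds back Cdc25 phosphatases, measured 4.29, 4.23 and 4.39 against 5.86, 5.69 and 5.31 and fell 2.48-fold. Atm, the kinase that senses DNA breaks, measured 4.28, 4.45 and 4.21 against 5.05, 5.35 and 5.47 and fell 1.97-fold (adjusted p = 0.0122 for Chek1 and 0.0204 for Atm). In none of these 4 genes did the groups overlap. The other Foxo genes of this list did not rise. Foxo3 measured 4.31, 4.28 and 4.41 against 5.03, 4.87 and 5.54, lower in every YFP-positive array (-0.82 ± 0.19). It did not pass (adjusted p = 0.0756 with limma), and Foxo4 differed by -0.04 (adjusted p = 0.967). Foxo1 had 2 probes, and with their mean its difference was 0.93 and did not pass (adjusted p = 0.141). Omitting replicate 1 of either group also ended the call of Foxo1, and omitting YFP-negative replicate 2 ended those of Txnip, Chek1 and Atm. Atm also lost it when YFP-positive replicate 1 or YFP-negative replicate 3 was omitted (up to 0.084). Of 11 partners of the Rb and E2f proteins 0 passed limma's test (before adjustment 1 had a p under 0.05, and the unmoderated model called 0). That gene was Tfdp1, which pairs with E2f factors to bind DNA, at 7.06, 7.25 and 8.09 against 8.41, 8.90 and 8.73 (adjusted p = 0.0867). Of 18 genes of the ubiquitin ligases that destroy cyclins and inhibitors, 0 passed limma's test (before adjustment 5 had a p under 0.05, all lower, and the unmoderated model called 0). Those lower before adjustment were 27.8% of this list and 9.09% of the partners, against 9.44% of all genes.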

How the data were processed

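Total RNA (500 pg per sample, all isolated together) was amplified and hybridised to 6 mouse arrays, per the labels' protocols. The deposited table holds 1 value per probe and array on what its range shows to be a log2 scale, and per the submitters' processing notes the authors used Partek. How background was corrected and how values were summarised and normalized is not stated in the sources used here. The values were used as deposited, with no further normalization. The array medians lay between 3.62 and 3.68, and no value column was left unused. Of 41345 probes, 23521 carried 1 gene symbol in the platform annotation, 1814 carried several and 16010 were not listed. Keeping the brightest probe per gene gave 22180 genes, 1082 of which had several probes.

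YFP-positive and YFP-negative arrays were compared with limma 3.58.1 in R 4.3.3 (lmFit and eBayes, 3 arrays each, no covariate), with p-values adjusted over all 22180 genes by Benjamini-Hochberg and a threshold of 0.05. This fit was tested on simulated data, with noise drawn independently for each probe and array. The alternative fits were not tested in this way. The number of arrays limits the precision. Each difference is the YFP-positive mean less the YFP-negative mean, in log2 units, with its SE. Levels of some genes were set against the median of all probes of an array, which is not a limit of detection. Apart from that, levels were not compared between probes of different genes. The members and the gene lists were chosen with earlier results of these data known.

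Every member was accounted for. Values per array were given for members past the adjusted or unadjusted threshold, for those that gained or lost the call without 1 array, and for inhibitors, Rb and E2f members whose 95% interval lay within -1 and 1. Most other members were given in the same way for completeness. Up to 4 genes of smallest p past the threshold were named per further list, and Cdh5 and Ptprc as marks of the cells. Kit, Vav1, Cd48, Tfdp1, the macrophage markers, Slbp, Tk1, Orc1, Cdc6 and the Mcm genes were named after their values were seen. The same holds for Mecom, Procr, Gata2, Foxo3 and Foxo4. Alternatives were leaving out each array, a block for the replicate number, no moderation, a mean-variance trend with robust moderation, the mean of a gene's probes, all probes, quantile normalization, centring on the array median, and testing only genes above the median level.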

Additional observations from a re-analysis of the deposited data

How the results depend on the processing

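The count of members that fell was 1 with all arrays. It was 0 without moderation, 2 with quantile normalization, 2 among genes above the median level, 11 at an unadjusted p under 0.05 and between 0 and 6 when 1 array was left out. The count of members that rose was 0, also in each of the 6 fits without 1 array, and 2 at an unadjusted p under 0.05. Of the further genes, 3 rose and 13 fell. Without moderation these counts were 0 and 0, at an unadjusted p they were 5 and 39, and without 1 array they ranged from 1 to 3 and from 1 to 26. Of 487 member values under an alternative, 473 kept their side of the threshold, 6 lost the call, 8 gained it and 0 reversed a called direction, while 19 had the other sign without a call. The cause of these shifts was not tested.

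The same replicate numbers occur in both groups. Deviations of same-numbered arrays from their group means correlated across genes at 0.0985, 0.0806 and 0.167, so the numbers were not taken to pair the samples, although each array correlated best with its own number, a hint from the data and not from the design. With the replicate block 1 member fell, and of the further genes 2 rose and 4 fell. Over all genes the block gave 412 higher and 168 lower calls, against 639 and 435 without it, and the unmoderated model gave 145 and 35. With the block Cdk1 had an adjusted p of 0.132. The calls of Cdkn1c, Gins2, Chaf1a, Pola1, Cenpf, Prc1, Atm and Chek1 were lost with it, and so were those of the S phase genes Mcm2, Mcm3 and Mcm6 (0.0513 to 0.0865). Those of Cdc25c, Cdk19, Ccnc, Cdc45, Foxo1 and Txnip were kept. Adjusting over all probes ended the calls of Ccnc, Cdkn1c, Chaf1a, Mcm2, Mcm3, Mcm6, Cenpf and Prc1 (0.0532 to 0.0892). A robust mean-variance trend ended those of Cdkn1c and Cenpf (0.0617 and 0.068), and quantile normalization that of Cenpf (0.0504). No limit set by signal over background was tested.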
